A study of Rattus norvegicus with 484 samples.

Results

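The chemokine and interleukin genes described here are all 78 genes on the array whose platform symbol is Ccl, Cxcl, Ccr, Cxcr or Il followed by a digit, out of 10210 named genes. Their names chose them, with no measured value in the rule, though this family was picked with earlier results of these data known. They were 15 CC chemokines, 9 CXC chemokines, 10 chemokine receptors, 22 interleukins with their antagonists and binding proteins, and 22 interleukin receptor subunits. They were carried by 110 probes, and the probes of a gene were averaged. All 78 had enough values to be tested in soleus, quad, liver and EDL.

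The study compared agonists of the nuclear receptors PPARA and PPARG with vehicle in rat tissues on single days from day 2 to day 6. Soleus is a slow-twitch muscle of the lower leg, quad stands for quadriceps, a mixed and largely fast muscle of the thigh, and EDL (extensor digitorum longus) is a fast muscle of the shin. Rats received fenofibrate at 400 mkd (dose unit as in the labels), bezafibrate at 250 mkd, Wy-14643 at 100 mkd, rosiglitazone at 100 mkd or retinoic acid at 25 mkd, and are set against vehicle rats. The first 3 compounds activate PPARA, rosiglitazone activates PPARG, and retinoic acid activates retinoic acid receptors. In that order soleus had 19, 20, 18, 20 and 20 treated arrays and 34 vehicle arrays, quad had 17, 20, 16, 16 and 18 and 63 vehicle arrays, and liver had 14, 15, 15, 15 and 15 and 73 vehicle arrays. EDL came from rats given low doses: fenofibrate at 50 mkd (9 arrays), bezafibrate at 25 mkd (9), Wy-14643 at 10 mkd (12), rosiglitazone at 10 mkd (9) and retinoic acid at 2.5 mkd (11), with 4 more arrays of rosiglitazone at 100 mkd on day 4. No EDL arrays of single vehicle rats were analysed. Strain, sex, age and route of dosing are not given in the sources used here.

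Each array set the RNA of 1 rat, in Cy5, against a same-day pool of that tissue from 10 to 16 vehicle rats, in Cy3. A level below is the log2 ratio of a rat to that pool, and an effect is the treated minus vehicle difference in that ratio within a day, averaged over days with equal weight, with its standard error (SE). Each day contributed 2 to 4 treated arrays. A gene was called, and said to rise or fall, where limma's test passed 0.05 after Benjamini-Hochberg adjustment over all features. The 5 compounds of a tissue were set against the same vehicle arrays, so their effects are not independent of each other, and their doses differ, so their values are given side by side. A ratio does not say whether a gene lay above background, and it carries no level with which to check a tissue label. Array pairs within a tissue correlated as low as -0.66 in soleus, -0.48 in quad, -0.42 in liver and -0.22 in EDL. Pairs under -0.3 made up 1.69%, 1.58%, 0.38% and 0% of the pairs. The labels state the dyes, so 1 direction was kept for all arrays. The array of quad from rat 1157, on fenofibrate, and that of soleus from rat 1022, on vehicle, spread 7.7 and 12.6 times as widely as the median of their tissue and were left out. The array of liver from rat 1376, on rosiglitazone, spread 4.55 times as widely and was kept. Results that rest on it are given with and without it. The tissues are mixtures of cells, so fewer cells of a type and less RNA per cell cannot be told apart in any value below.

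Chemokines are small secreted proteins that bind G protein-coupled receptors on leukocytes and direct where those cells go. Interleukins act through surface receptors that signal mainly through JAK kinases and STAT proteins or, for the interleukin-1 and interleukin-17 families, through the NF-kB pathway. PPARs and retinoic acid receptors are ligand-activated transcription factors that both activate their own target genes and restrain inflammatory gene programmes in liver, muscle and macrophages.

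Among the 78 members, 55 were called for at least 1 of the 5 compounds in at least 1 of soleus, quad and liver. They were 19 members in soleus, 16 in quad and 47 in liver. The other 23 were called in none of the 15 comparisons, and their largest effect was 0.345 on the log2 scale in size. Per compound in liver, 11.5% to 30.8% of the members were called, against 21.3% to 40.2% of all features. In soleus it was 0% to 17.9% against 0.321% to 8.57%, and in quad 0% to 11.5% against 0.038% to 10.5%. The share of all features called at least once is not given here, so nothing particular to the members is read from these counts. In liver, Cxcl12 and Il6r fell with all 5 compounds. Il10, an anti-inflammatory cytokine, was called nowhere, with effects from -0.10 to 0.06.

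**Figure D1:**
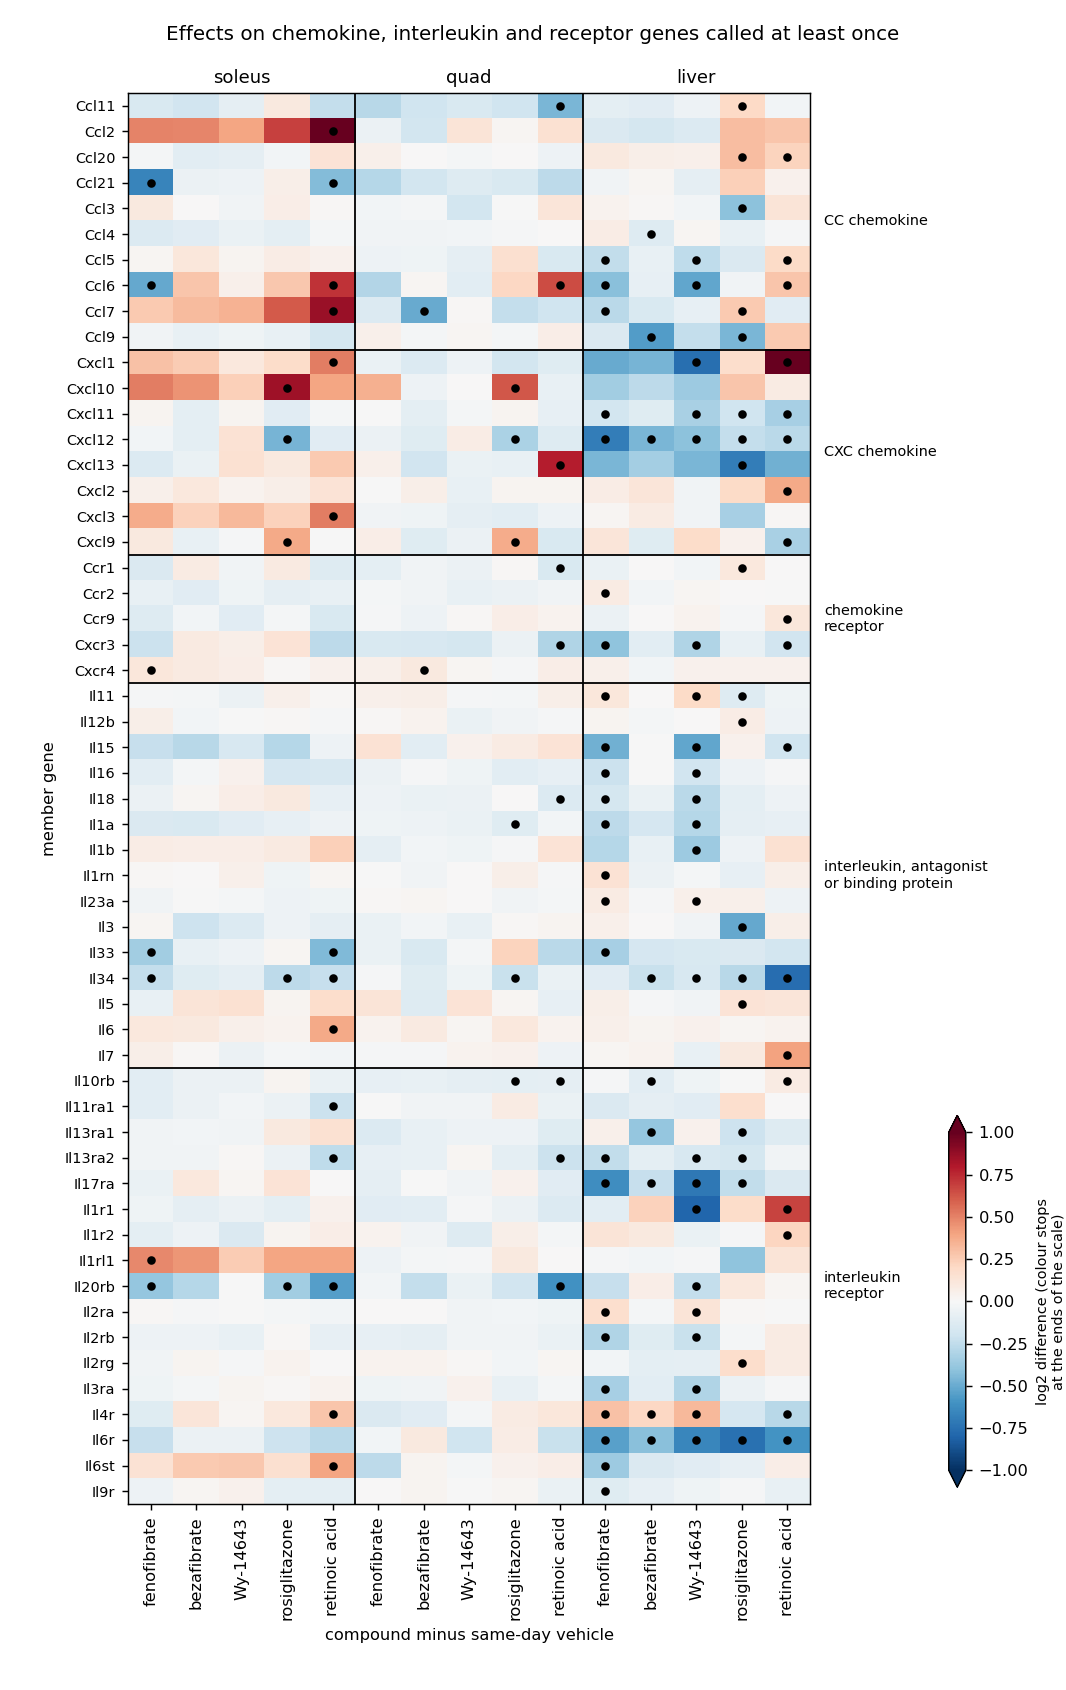
Heatmap of the log2 treated minus vehicle effect of the 5 compounds (columns) on the 55 members called at least once (rows, grouped by role) in soleus, quad and liver. Dots mark effects that passed 0.05 over all features, and the colour scale stops at a log2 effect of 1 in either direction. Most dots lie in the liver columns, and the deepest red cells are Cxcl1 in liver and Ccl2 in soleus with retinoic acid.

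The promoters of Cxcl1, Cxcl10 and Cxcl9 are shown because the first was the chemokine with the largest effect and the other 2 rose in both muscles with rosiglitazone. They are 300 bases, 250 before and 50 after the gene start, from RefSeq (GRCr8), written 5′ to 3′ along the gene. Capitals mark matches to GGGANNTTC, a short form of the NF-kB element, and to TTTCNNTTT, a short form of the interferon-stimulated response element (ISRE), on either strand. The Cxcl1 promoter is chr14:17479272-17479571 on the minus strand, that of Cxcl10 is chr14:15988816-15989115 and that of Cxcl9 is chr14:16006916-16007215, both on the plus strand.
Cxcl1: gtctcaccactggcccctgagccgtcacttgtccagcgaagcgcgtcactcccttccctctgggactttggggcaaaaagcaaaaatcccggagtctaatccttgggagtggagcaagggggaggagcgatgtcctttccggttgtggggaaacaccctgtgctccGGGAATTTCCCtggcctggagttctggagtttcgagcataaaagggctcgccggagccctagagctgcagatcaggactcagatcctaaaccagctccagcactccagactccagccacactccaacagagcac
Cxcl10: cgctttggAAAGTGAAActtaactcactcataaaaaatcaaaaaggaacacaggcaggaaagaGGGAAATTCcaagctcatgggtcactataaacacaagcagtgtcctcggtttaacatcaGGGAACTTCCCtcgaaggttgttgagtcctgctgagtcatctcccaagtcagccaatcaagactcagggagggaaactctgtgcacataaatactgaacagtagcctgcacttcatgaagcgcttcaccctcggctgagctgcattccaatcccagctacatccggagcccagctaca
Cxcl9: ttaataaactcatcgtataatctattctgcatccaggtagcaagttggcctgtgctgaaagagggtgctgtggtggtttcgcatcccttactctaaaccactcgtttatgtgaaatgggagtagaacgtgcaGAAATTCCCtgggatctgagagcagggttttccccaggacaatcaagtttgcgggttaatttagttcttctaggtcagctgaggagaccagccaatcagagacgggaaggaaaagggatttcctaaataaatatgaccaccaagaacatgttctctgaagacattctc
Cxcl1 had an NF-kB match starting at position -84 and an overlapping one on the other strand at -82. Cxcl10 had NF-kB matches at -187 and at -128, the second again with an overlapping match on the other strand at -126, and an ISRE match at -242. Cxcl9 had an NF-kB match at -118 on the other strand, and the ISRE letters do not occur in its window. The NF-kB letters were in 4.05% of 33469 promoters and in 12 of the 60 promoters found for 58 members (20.0%), those of Ccl7, Ccl28, Ccr3, Cxcl1, Cxcl6, Cxcl9, Cxcl10, Cxcl11, Cxcr2, Cxcr4, Il5ra and Il6. The ISRE letters were in 11.8% of all promoters and in 14 of the 60 members' promoters (23.3%), Cxcl10, Cxcl11, Ccl7, Ccl19 and Il18bp among them. The motifs were chosen after the results were seen, and a match is a description of the letters only.

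With retinoic acid at 25 mkd, 10 members rose and 8 fell in liver, which is 23.1% of the members where 29.2% of all features were called (14.2% higher and 15.0% lower). The neutrophil-attracting chemokine Cxcl1 rose most and Il34, a ligand of the macrophage receptor Csf1r, fell most. The median effect was 0.02 over the members and 0.00 over all features tested. Cxcl2, a close relative of Cxcl1 that acts on the same receptor, and Il1r1, the signalling receptor of interleukin-1, also rose.

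Cxcl1 in liver ranged from -0.01 through a median of 1.27 to 5.22 (log2 ratio) on the 15 retinoic acid arrays, against -1.28, -0.16 and 1.88 on the 73 vehicle arrays. All 15 retinoic acid arrays lay above their day's vehicle mean, and 3 of 73 vehicle arrays lay above the treated median once each was set against its day. The effect was 1.78 ± 0.23 (SE), a fold of 3.43, with adjusted p = 7.9e-11 (limma). Its 5 day effects were 1.11, 2.82, 2.67, 1.03 and 1.26 from day 2 to day 6. The 3 probes of Cxcl1 gave 1.58 to 1.91, and without rat 1314, the array that mattered most, the effect was 1.53. Cxcl2 ran from -0.43 through 0.26 to 1.90 on the treated arrays, against -0.42, -0.01 and 1.01 on the vehicle arrays, and its groups overlapped broadly. Its effect was 0.38 ± 0.09 (adjusted p = 0.00024, limma), with 11 of 15 arrays above the vehicle mean of their day.

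The chemokine ligands of Cxcr3, which are interferon-induced and attract T cells, were partly called in liver with retinoic acid, and those were lower. Cxcl11 fell by 0.33 ± 0.06 and Cxcl9 by 0.33 ± 0.13 (adjusted p = 0.039), whereas Cxcl10 had an effect of 0.08 ± 0.19 (adjusted p = 0.81). The Cxcl9 call ended under 4 of 11 other settings, with an adjusted p up to 0.19. The receptor Cxcr3 itself fell by 0.20 ± 0.07 (adjusted p = 0.017), a call that ended without day 2 (adjusted p = 0.25) and with arrays scaled to one spread. Of 15 other interferon targets, 11 rose and 0 fell, with a median effect of 0.41. Cxcl12, which holds leukocytes and progenitors in place through Cxcr4, fell by 0.27 ± 0.06 on 15 of 15 arrays, and without day 3 its adjusted p was 0.082. Among the CC chemokines the T cell attractant Ccl5 rose by 0.19 ± 0.06 (adjusted p = 0.0085, and 0.096 without day 3). Ccl20, the ligand of Ccr6, rose by 0.22 and the rodent chemokine Ccl6 by 0.28 ± 0.11 (adjusted p = 0.038, on 14 of 15 arrays), and both calls ended without day 3 or day 6. The monocyte attractant Ccl2 had 0.28 ± 0.14 (adjusted p = 0.12). Ccr9 rose by 0.11, a call that ended under 4 of 11 settings.

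Il34 in liver ran from -1.14 through -0.83 to 0.37 (log2 ratio) with retinoic acid, against -0.47, 0.01 and 0.39 with vehicle. All 73 vehicle arrays lay above the treated median, and 14 of 15 treated arrays lay below the vehicle mean of their day. The effect of -0.76 ± 0.06 was 1.69-fold down (adjusted p = 1.4e-21). Il7, a growth factor for lymphocytes, ran from 0.03 through 0.38 to 1.56 with retinoic acid, against -0.31, 0.00 and 0.43 with vehicle, and rose by 0.40 ± 0.07 (adjusted p = 2.1e-07). For Il7, 3 of 73 vehicle arrays lay above the treated median. Il15, a growth factor for NK cells, fell by 0.20 ± 0.07 (adjusted p = 0.021), but its effect was -0.09 without rat 1314. Il1b had 0.15 ± 0.12 (adjusted p = 0.37) and Il6 0.04 ± 0.04 (adjusted p = 0.56).

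Among the interleukin receptors in liver, Il1r1 ran from -0.22 through 0.34 to 1.85 (log2 ratio) on the retinoic acid arrays, against -1.67, -0.16 and 1.08 on the vehicle arrays. All 15 treated arrays lay above their day's vehicle mean although the ranges overlapped, and the effect was 0.68 ± 0.13 (adjusted p = 1.6e-05). The day effects of Il1r1 were 0.57, 1.33, 0.90, 0.28 and 0.31, so day 3 was highest for it and for Cxcl1. Rat 1314, the array that mattered most for Cxcl1, was 1 of the 3 treated arrays of that day. The height of day 3 for Cxcl1 thus rests partly on 1 rat. Il6r, the interleukin-6 binding chain, fell by 0.60 ± 0.12 on 13 of 15 arrays. Il4r, the shared chain for interleukin-4 and interleukin-13, fell by 0.28 ± 0.07 on 12 of 15 (adjusted p = 0.08 without day 3). The decoy receptor Il1r2 rose by 0.22, and by 0.06 without rat 1314. Il10rb rose by 0.085, and by 0.04 without rat 1314.

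Other gene lists moved in these livers, and their part in the member effects was not tested. Of 10 acute phase genes 4 rose (Hpx, Lcn2, Orm1 and Saa4), with a list median of 0.32. Of 16 NF-kB and AP-1 targets 6 rose (Birc3, Icam1, Junb, Nfkb2, Nfkbib and Ptgs2) and Vcam1 fell. Of 4 neutrophil markers 1 rose (S100a8), with a list median of 0.34, and of 12 macrophage markers 1 rose. Of 5 hepatocyte markers 3 fell. Of 7 genes listed for antigen presentation 4 fell, Cd74, RT1-Ba and RT1-Db1 among them. RT1-Da was not called there, at -0.173 (adjusted p = 0.057, limma). Tap1 (0.156), Tap2 (0.405), Psmb8 (0.467) and Psmb9 (0.754), counted above with the interferon targets, rose, so antigen presentation genes did not move one way. T and NK cell markers had 4 higher and 1 lower of 15.

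**Figure D2:**
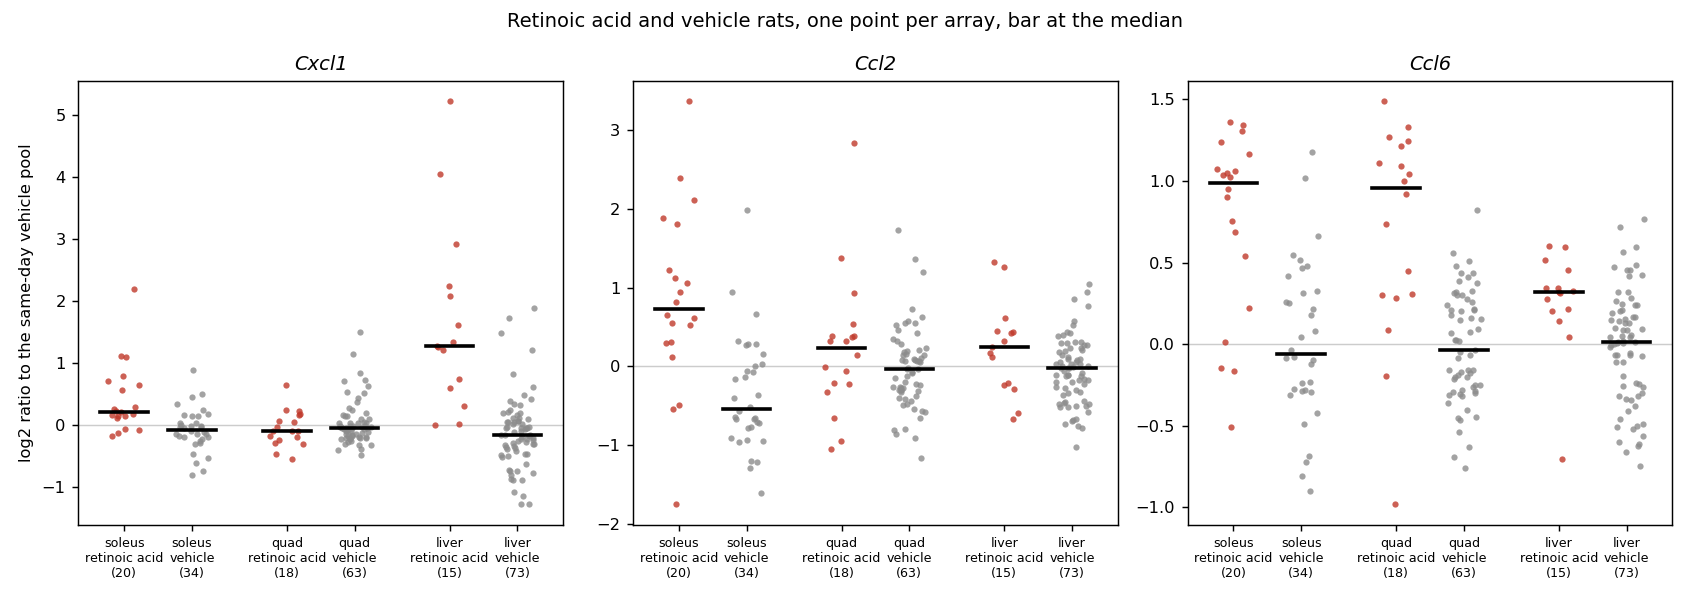
Cxcl1, Ccl2 and Ccl6 as log2 ratio to the vehicle pool on each array (points; bar at the median) with retinoic acid (left of each pair) and vehicle (right) in soleus, quad and liver. Cxcl1 is shifted upward in liver, to a treated median of 1.27 against -0.16 with vehicle, Ccl2 in soleus, 0.73 against -0.54, and Ccl6 in both muscles, with treated medians of 0.99 and 0.96.

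In soleus, 8 members rose and 6 fell with retinoic acid, 17.9% of the members against 5.80% of all features (3.20% higher and 2.60% lower). The chemokines Ccl2, Ccl6, Ccl7, Cxcl1 and Cxcl3 made up 5 of the 8 that rose, beside Il6, its signalling chain Il6st and Il4r. All compounds were set against the same vehicle arrays. The lowest soleus effect with any compound was still above 0 for Ccl2 (0.395), Ccl7 (0.258), Cxcl3 (0.234), Il6st (0.148), Cxcl1 (0.106) and Il6 (0.032). It was below 0 for Ccl6 (-0.509) and Il4r (-0.119). The members that fell were Il20rb, Il33, Il34, Il11ra1, Il13ra2 and Ccl21. The median effect was -0.01 over the members and -0.01 over all features tested. Without the 7 further arrays in doubt 6 members rose and 5 fell, and without day 4 the total was 8.

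The monocyte attractant Ccl2 in soleus ran from -1.75 through 0.73 to 3.37 (log2 ratio) on 20 retinoic acid arrays, against -1.61, -0.54 and 1.99 on 34 vehicle arrays. The ranges overlapped, and once set against its day the treated median was exceeded by 2 of 34 vehicle arrays. The effect was 1.21 ± 0.26, a fold of 2.32 (adjusted p = 0.00074, limma), with day effects of 0.85, 0.44, 1.80, 1.91 and 1.06. Ccl7, another ligand of Ccr2, ran from -1.53 through 0.54 to 3.47 with retinoic acid, against -1.63, -0.29 and 2.15 with vehicle, and rose by 0.87 ± 0.27 (adjusted p = 0.034). That call ended under 6 of 12 other settings, with an adjusted p up to 0.22. Ccl6 ran from -0.51 through 0.99 to 1.36 with retinoic acid, against -0.90, -0.06 and 1.18 with vehicle. It lay above the day's vehicle mean on 17 of 20 arrays and rose by 0.72 ± 0.13, a fold of 1.65 (adjusted p = 5.8e-05). Ccl21, which guides dendritic and T cells through Ccr7, fell by 0.43 ± 0.14 on 18 of 20 arrays (adjusted p = 0.041), and its call ended under 7 of 12 settings. With the other 4 compounds, set against the same vehicle arrays, the soleus difference of Ccl2 was 0.49 ± 0.26 with fenofibrate, 0.49 ± 0.26 with bezafibrate, 0.40 ± 0.27 with Wy-14643 and 0.68 ± 0.26 with rosiglitazone (log2, ± SE), and limma called none of them, at adjusted p between 0.112 and 0.678.

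Cxcl1 in soleus ran from -0.18 through 0.21 to 2.19 with retinoic acid, against -0.80, -0.07 and 0.90 with vehicle (log2 ratio). It lay above the day's vehicle mean on 18 of 20 arrays and rose by 0.51 ± 0.13 (adjusted p = 0.0061), but without day 5 the adjusted p was 0.1. Cxcl3, a relative of Cxcl1, rose by 0.51 ± 0.14 on 17 of 20 arrays (adjusted p = 0.017, and up to 0.17 under 3 of 12 settings). Il6 ran from 0.00 through 0.24 to 2.05, against -0.81, 0.06 and 0.58 with vehicle, so a few treated arrays lay far above the vehicle range. Its effect was 0.38 ± 0.10 on 19 of 20 arrays (adjusted p = 0.0085), and without day 4 its adjusted p was 0.12. Il6st rose by 0.39 ± 0.11 (adjusted p = 0.02, and 0.23 without day 4), and Il4r by 0.28 ± 0.08 (adjusted p = 0.032, a call that ended under 6 of 12 settings).

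Il20rb, a chain of the receptors for interleukin-19, interleukin-20 and interleukin-24, ran from -0.99 through -0.56 to 0.77 in soleus with retinoic acid, against -0.79, 0.06 and 1.31 with vehicle (log2 ratio). It lay below the day's vehicle mean on 18 of 20 arrays and fell by 0.55 ± 0.10 (adjusted p = 7.9e-05). Il33, an alarmin that binds Il1rl1, ran from -1.06 through -0.40 to 0.28 with retinoic acid, against -0.66, -0.02 and 0.60 with vehicle, and fell by 0.44 ± 0.10 on 19 of 20 arrays (adjusted p = 0.0014). With the 2 left-out arrays kept in the fit its adjusted p was 0.075. Il34 fell by 0.23 ± 0.06 (adjusted p = 0.011, up to 0.098 without day 4 or day 5). Il11ra1, the interleukin-11 receptor, fell by 0.21 ± 0.05 (adjusted p = 0.00075), and the interleukin-13 decoy Il13ra2 by 0.25 ± 0.07 (adjusted p = 0.014, up to 0.15 without day 3 or day 4). The chemokine receptor with the largest effect in soleus, Cxcr3 at -0.26, missed the threshold (adjusted p = 0.061). Beside these, 4 of 7 antigen presentation genes fell (Cd74, RT1-Ba, RT1-Da and RT1-Db1), 1 of 13 macrophage markers fell (Mrc1) and 4 of 16 NF-kB and AP-1 targets rose (Junb, Ptgs2, Selp and Vcam1). Their part in the member effects was not tested.

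In quad, 2 members rose and 7 fell with retinoic acid, 11.5% of the members against 3.25% of all features (0.961% higher and 2.28% lower). Ccl6 and Cxcl13, the chemokine that attracts B cells, rose. Ccl6 ran from -0.98 through 0.96 to 1.49 (log2 ratio) on 18 retinoic acid arrays, against -0.76, -0.04 and 0.82 on 63 vehicle arrays. None of the vehicle arrays (0 of 63) reached the treated median, though 2 of 18 treated arrays lay below their day's vehicle mean. The effect was 0.65 ± 0.10 (adjusted p = 6.3e-07, limma) in quad, beside 0.72 ± 0.13 in soleus. Cxcl13 ran from -0.62 through 0.68 to 2.41 with retinoic acid, against -1.58, -0.28 and 1.68 with vehicle, and rose by 0.79 ± 0.21 (adjusted p = 0.013). Its call ended without day 3, 4, 5 or 6, with an adjusted p up to 0.11.

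Il20rb in quad ran from -1.17 through -0.65 to 0.38 with retinoic acid, against -0.85, 0.05 and 0.47 with vehicle (log2 ratio), and fell by 0.60 ± 0.09 (adjusted p = 7.8e-08). It lay below the vehicle mean of the day on 17 of 18 arrays. The eosinophil attractant Ccl11 ran from -1.23 through -0.52 to 1.25, against -0.94, -0.04 and 1.08 with vehicle, and fell by 0.45 ± 0.12 (adjusted p = 0.013, up to 0.17 under 4 of 12 settings). The chemokine receptors Cxcr3 and Ccr1 fell by 0.30 ± 0.07 and by 0.16 ± 0.04. Il13ra2 fell by 0.22 ± 0.06, Il18, an inflammasome product, by 0.14 ± 0.04, and Il10rb by 0.09 ± 0.03 (adjusted p = 0.039). Of these, the Cxcr3 call held under every setting run, those of Ccr1, Il13ra2 and Il18 ended under 2 or 3 of 12, and that of Il10rb ended under 8 of 12. Il33 had the largest effect among the interleukins in quad, -0.27, and missed the threshold (adjusted p = 0.061). In the same arrays 5 of 13 macrophage markers fell (Aif1, C1qa, Csf1r, Lyz2 and Mrc1, list median -0.10) and 3 of 7 antigen presentation genes fell. Their part in the member effects was not tested.

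Cxcl1 and Ccl2, which rose in soleus, were not called in quad. Cxcl1 there ran from -0.56 through -0.10 to 0.64 with retinoic acid, against -0.49, -0.04 and 1.51 with vehicle, and its effect was -0.12 ± 0.09, with a 95% interval from -0.30 to 0.05. Ccl2 had 0.15 ± 0.15 in quad, with an interval from -0.14 to 0.45. The difference itself was tested as the soleus effect minus the quad effect. Cxcl1 was the only member called, at 0.64 ± 0.15 (adjusted p = 0.029), where 0.272% of all features were called. The call was lost when arrays were scaled to one spread, with array quality weights, with the 2 left-out arrays kept, and without all arrays in doubt. With the rat as a block, since most rats gave both muscles, Ccl2 (1.07 ± 0.27, adjusted p = 0.031) and Ccl7 (1.08, adjusted p = 0.029) passed as well and Cxcl1 had 0.65 (adjusted p = 0.0075). Without the block their adjusted p was 0.087 and 0.079. For the other 4 compounds 0 members differed between the muscles by limma, with 12 at an unadjusted p under 0.05 for fenofibrate, 6 for bezafibrate, 4 for Wy-14643 and 9 for rosiglitazone. The percentages of all features called were 0.545, 0.0817, 0.00545 and 0.169.

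Among the members called with retinoic acid, Ccl6 rose in both muscles (1 of 8 risers in soleus and of 2 in quad), and Il20rb and Il13ra2 fell in both (2 of 6 and of 7). Over all features, 99 rose in both, 16.8% of the risers in soleus and 55.9% of those in quad, and 155 fell in both, 32.4% and 36.8%. Most of these rats gave both muscles, and nothing particular to the members is read from their counts. Ccl6 rose in all 3 tissues.

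With rosiglitazone at 100 mkd, 2 members rose and 3 fell in soleus, 6.41% of the members against 4.78% of all features (2.82% higher and 1.96% lower). In quad 2 rose and 4 fell, 7.69% against 10.5% (6.22% higher and 4.30% lower). The risers were the same in both muscles: Cxcl9 and Cxcl10, which interferon induces and which attract T cells through Cxcr3. Cxcl12 and Il34 fell in both muscles and in liver. The share of members called lay close to that of all features, so it says nothing particular about the members.

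Cxcl12 in soleus ran from -0.96 through -0.44 to 0.06 (log2 ratio) on 20 rosiglitazone arrays, against -0.51, -0.01 and 0.37 on 34 vehicle arrays. It lay below the vehicle mean of its day on 19 of 20 arrays, and 33 of 34 vehicle arrays lay above the treated median. The effect was -0.46 ± 0.06, 1.38-fold down (adjusted p = 7e-10, limma). In quad it ran from -0.84 through -0.40 to 0.19, against -0.46, -0.02 and 0.29 with vehicle, and fell by 0.32 ± 0.05 on 14 of 16 arrays (adjusted p = 3.7e-07). Its day effects were negative on every day in both muscles, from -0.18 to -0.74 in soleus and from -0.07 to -0.61 in quad. Cxcl12 had 6 probes, whose effects had one direction but ran from -0.84 to -0.07 in soleus and from -0.60 to -0.04 in quad.

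Cxcl10 in soleus ran from -0.76 through 0.46 to 3.60 (log2 ratio) with rosiglitazone, against -1.23, -0.18 and 1.63 with vehicle. Its day effects were 0.92, -0.21, 0.00, 2.37 and 1.16, so days 5 and 6 and the early day 2 were high and days 3 and 4 were not. The averaged effect was 0.85 ± 0.22, a fold of 1.80 (adjusted p = 0.0089, limma), and without day 5 the adjusted p was 0.4. With every compound the soleus effect of Cxcl10 was at least 0.24 against the same vehicle arrays, though only rosiglitazone was called. In quad Cxcl10 ran from -0.78 through 0.06 to 2.76 with rosiglitazone, against -1.51, -0.27 and 1.37 with vehicle. Its day effects were -0.29, 0.20, 0.06, 2.14 and 0.97, and 11 of 16 arrays lay above the vehicle mean. The effect was 0.62 ± 0.20 (adjusted p = 0.028, and up to 0.64 without day 5 or day 6). Day 5 was the highest in both muscles, and most rats gave both muscles.

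Cxcl9 ran from -0.31 through 0.29 to 1.30 in soleus with rosiglitazone, against -0.56, 0.00 and 0.79 with vehicle (log2 ratio). Its effect was 0.38 ± 0.10 in soleus (adjusted p = 0.0088) and 0.37 ± 0.09 in quad (adjusted p = 0.0022). In soleus the day effects were 0.15, 0.19, 0.07, 0.57 and 0.90, and in quad 0.09, 0.10, 0.19, 0.82 and 0.67. Days 5 and 6 were the high ones, and either call ended without day 5, with an adjusted p up to 0.11 in soleus and 0.16 in quad over the settings run. The day slope of these genes was not called in either muscle. In liver Cxcl9 had 0.04 ± 0.13 and Cxcl10 0.28 ± 0.19, neither called (adjusted p = 0.85 and 0.29).

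**Figure D3:**
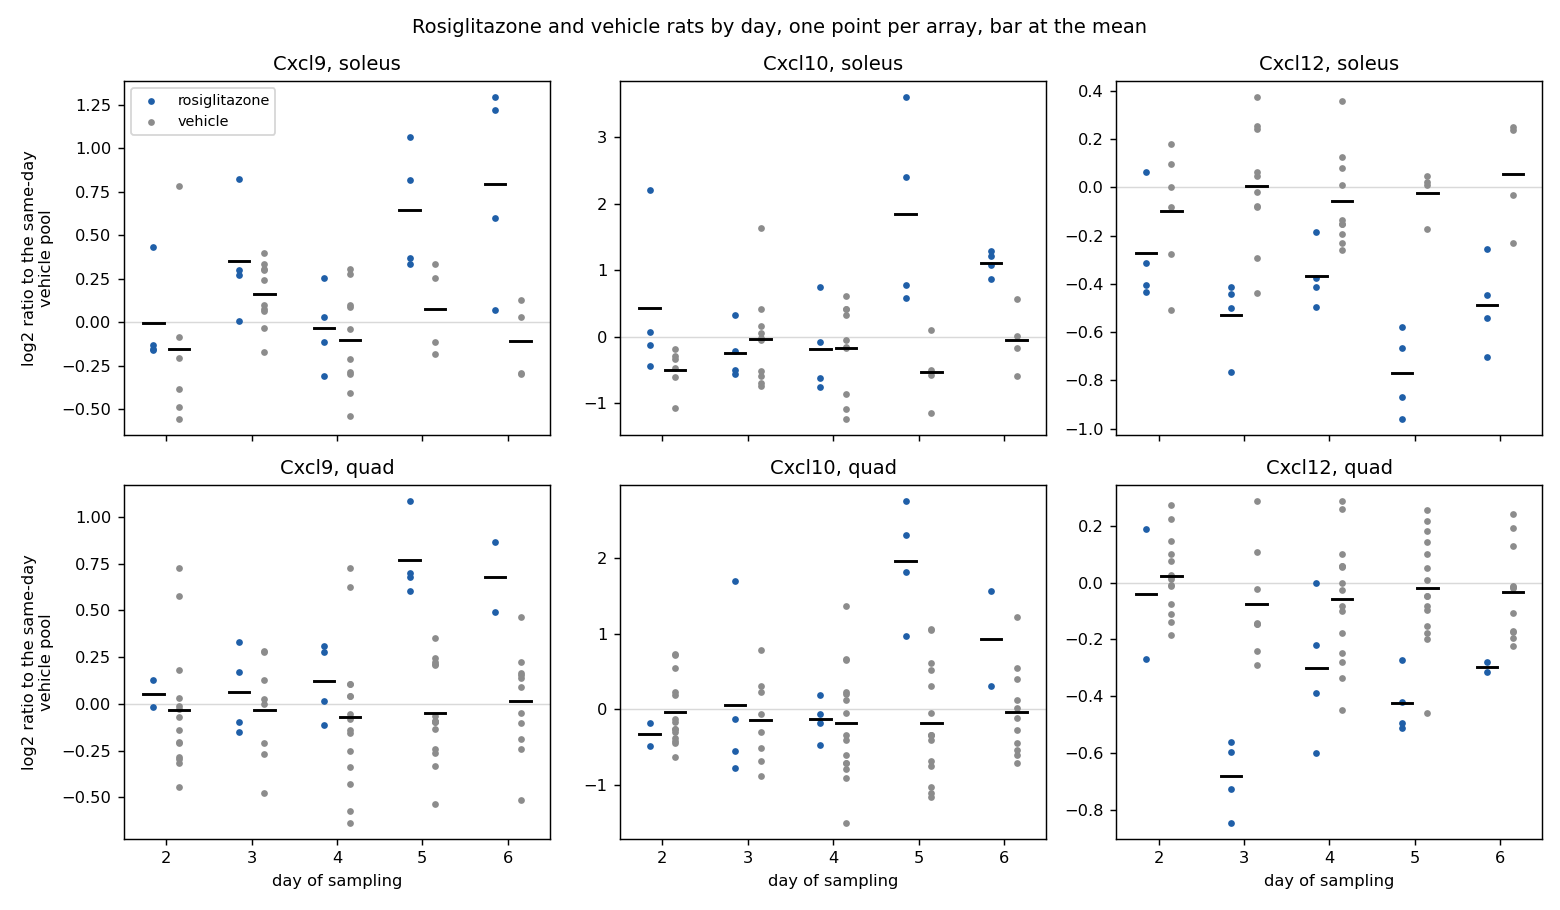
Cxcl9, Cxcl10 and Cxcl12 as log2 ratio to the same-day vehicle pool on each array by day in soleus and quad, with rosiglitazone left of vehicle on each day and a bar at the mean. Cxcl10 is highest on day 5 in both muscles, with a day effect of 2.37 in soleus and 2.14 in quad, and Cxcl12 lies lower with rosiglitazone on each day.

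Other interferon targets moved in the same arrays. Of 16 on the array, 10 rose in soleus (B2m, Gbp2, Ifit3, Irf1, Irf7, Irf9, Isg15, Mx1, Mx2 and Psmb9) and 6 in quad (Gbp2, Irf7, Isg15, Mx1, Psmb8 and Psmb9), with list medians of 0.27 and 0.20 and 0 lower. The mean level of that list ran from -0.38 through 0.19 to 1.06 in soleus with rosiglitazone, against -0.47, -0.11 and 0.42 with vehicle, and from -0.33 through 0.12 to 0.96 in quad, against -0.38, -0.04 and 0.92. The rise was not particular to muscle. In liver, where neither Cxcl9 nor Cxcl10 was called, Ifit2 (0.428), Ifit3 (0.384), Irf7 (0.549), Isg15 (0.492) and Mx1 (0.242) rose with rosiglitazone. Macrophage markers had 0 of 13 called in either muscle, though Fcgr3a, an Fc receptor gene outside that list, rose by 0.236 in soleus. T and NK cell markers had 1 higher and 1 lower of 15 in soleus and 1 higher in quad. Of 8 blood endothelium markers 2 rose (Kdr and Tek) and 2 fell (Emcn and Pecam1) in soleus, and 2 of 6 adipocyte markers rose there (Cidea and Fabp4). The part of these in the Cxcl9, Cxcl10 and Cxcl12 effects was not tested.

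The remaining muscle calls with rosiglitazone were small. Il34 fell by 0.26 ± 0.06 in soleus (17 of 20 arrays) and by 0.23 ± 0.06 in quad (15 of 16), and either call ended without day 4. Il20rb fell by 0.35 ± 0.10 in soleus on 19 of 20 arrays (adjusted p = 0.027, up to 0.12 under 5 of 12 settings). In quad Il10rb fell by 0.10 ± 0.03, and Il1a, a cell-associated form of interleukin-1, by 0.13 ± 0.04. Those calls ended under 4 and 6 of 12 settings.

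In liver, 7 members rose and 12 fell with rosiglitazone, 24.4% of the members against 22.7% of all features (10.3% higher and 12.4% lower). Without the wide array of rat 1376 the counts were 3 and 9, and without day 4, which holds rats 1376 and 1373, 2 and 4. Il6r had the largest effect among these calls. It ran from -3.83 through -0.62 to 0.02 (log2 ratio) with rosiglitazone, against -0.86, -0.03 and 0.82 with vehicle, below the day's vehicle mean on 15 of 15 arrays, and fell by 0.75 ± 0.12 (adjusted p = 1.4e-06). The size of that effect includes the array at -3.83, far below the treated median. Il6r was not among the calls whose effect moved by over 1.5 times without 1 array. Cxcl13 ran from -1.81 through -0.95 to 0.38, against -1.55, -0.25 and 1.24 with vehicle, and fell by 0.70 ± 0.20 on 13 of 15 arrays (adjusted p = 0.0082, and 0.074 without day 3). Il34 fell by 0.28 ± 0.06 on 14 of 15 arrays.

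For 12 of the 19 calls the effect moved by over 1.5 times without 1 array. Without rat 1376 the effects were -0.20 for the rodent chemokine Ccl9 (-0.46 with it), 0.12 for Ccl20 (0.31), -0.15 for Cxcl12 (-0.24), -0.14 for the interleukin-17 receptor chain Il17ra (-0.24), -0.11 for Cxcl11 (-0.20), -0.06 for Il13ra1 (-0.21), -0.04 for Il13ra2 (-0.18) and 0.10 for Ccl7 (0.26). Without rat 1373, whose values of Il3 and Ccl3 lay at the lower limit of the table, they were -0.09 for Il3 (-0.51) and 0.01 for Ccl3 (-0.41). Without rat 1380, Il12b had 0.04 (0.07) and Ccr1 0.06 (0.11). The other calls were Il2rg at 0.18, Il11 at -0.13, Il5 at 0.14 and Ccl11 at 0.20.

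The PPARA agonists gave most of their member calls in liver, and most of these were lower. With fenofibrate 6 members rose and 18 fell, 30.8% of the members against 37.0% of all features. With Wy-14643 4 rose and 19 fell, 29.5% against 40.2%. With bezafibrate 1 rose and 8 fell, 11.5% against 21.3%. All features were split more evenly: 17.7% higher and 19.3% lower with fenofibrate, 11.4% and 9.89% with bezafibrate, and 19.1% and 21.2% with Wy-14643. Beside these shares, 6, 1 and 4 of 78 members rose and 18, 8 and 19 fell, in the order fenofibrate, bezafibrate and Wy-14643. The share of members called lay below that of all features each time, so no lowering particular to the members is read from the counts. The median effect over the members was -0.03, -0.04 and -0.05 in the order fenofibrate, bezafibrate and Wy-14643, and 0.00, -0.01 and -0.01 over all features.

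By role, fenofibrate lowered 3 of 15 CC chemokines, 2 of 9 CXC chemokines, 1 of 10 chemokine receptors, 5 of 22 interleukins and 7 of 22 interleukin receptors in liver. It raised 0, 0, 1, 3 and 2 of them. Wy-14643 lowered 2, 3, 1, 6 and 7 in the same order and raised 2 interleukins and 2 interleukin receptors.

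Cxcl12 in liver ran from -1.39 through -0.67 to -0.27 (log2 ratio) on the 14 fenofibrate arrays, from -0.84 through -0.44 to 0.01 on the 15 bezafibrate arrays and from -0.80 through -0.39 to -0.09 on the 15 Wy-14643 arrays, against -0.32, 0.00 and 0.31 on the 73 vehicle arrays. Every treated array of the 3 compounds lay below the vehicle mean of its day. The effects were -0.69 ± 0.07 with fenofibrate (adjusted p = 4.1e-17), -0.45 ± 0.06 with bezafibrate (adjusted p = 3.6e-09) and -0.41 ± 0.06 with Wy-14643 (adjusted p = 1.8e-08), all by limma. Ccl5 fell by 0.24 ± 0.06 with fenofibrate and by 0.25 with Wy-14643, both calls ending without day 6, and had -0.07 ± 0.06 with bezafibrate (not called). Ccl6 fell by 0.42 with fenofibrate and by 0.52 ± 0.11 with Wy-14643. For Wy-14643 its arrays ran from -1.06 through -0.51 to -0.16, against -0.75, 0.02 and 0.77 with vehicle, so all 15 lay below the vehicle median.

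Cxcl1, which rose in liver with retinoic acid, fell with Wy-14643. It ran from -1.58 through -0.89 to -0.15 on the Wy-14643 arrays, against -1.28, -0.16 and 1.88 with vehicle (log2 ratio), and the effect was -0.76 ± 0.23 (adjusted p = 0.0039). With fenofibrate it ran from -2.15 through -0.93 to 3.41, with 12 of 14 arrays below the day's vehicle mean and an effect of -0.51 ± 0.23 that missed the threshold (adjusted p = 0.08). Ccl9 fell with bezafibrate by 0.56 ± 0.11 (adjusted p = 6.8e-05). Its bezafibrate arrays ran from -1.08 through -0.59 to 0.11, against -0.46, 0.00 and 0.42 with vehicle, and all 73 vehicle arrays lay above the treated median. Cxcl11 fell by 0.32 ± 0.06 with Wy-14643 on 15 of 15 arrays and also with fenofibrate, there with an adjusted p of 0.073 without day 3. The receptor Cxcr3 fell by 0.41 ± 0.07 with fenofibrate on 14 of 14 arrays (adjusted p = 5e-07) and was also called with Wy-14643. With bezafibrate the chemokine Ccl4, made by activated macrophages, fell by 0.13, a call that ended under 3 of 11 settings.

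Il15 in liver ran from -1.05 through -0.49 to 0.21 (log2 ratio) with fenofibrate, against -0.62, 0.01 and 0.41 with vehicle. It fell by 0.48 ± 0.07 with fenofibrate (13 of 14 arrays, adjusted p = 2.9e-08) and by 0.52 ± 0.07 with Wy-14643 (14 of 15, adjusted p = 4e-10). Il18 fell by 0.18 with fenofibrate and by 0.27 ± 0.04 with Wy-14643. Il16, a ligand of CD4, fell by 0.21 with fenofibrate. Il1b fell by 0.37 ± 0.12 with Wy-14643 (adjusted p = 0.0078, and 0.26 without day 6) and had -0.29 ± 0.12 with fenofibrate (adjusted p = 0.056). Il11 rose by 0.19 ± 0.04 with Wy-14643, and the interleukin-1 antagonist Il1rn rose by 0.15 with fenofibrate (adjusted p = 0.029, up to 0.11 under 3 of 11 settings). With bezafibrate Il34 fell by 0.22, a call that ended without day 4 (adjusted p = 0.087).

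Among the interleukin receptors Il17ra was the most sharply separated. It ran from -1.03 through -0.57 to -0.27 (log2 ratio) with fenofibrate and from -1.01 through -0.72 to -0.45 with Wy-14643, against -0.67, 0.04 and 0.38 with vehicle. The effects were -0.62 ± 0.07 with fenofibrate (adjusted p = 2.5e-14), -0.71 ± 0.06 with Wy-14643 (adjusted p = 1.6e-18) and -0.23 with bezafibrate (adjusted p = 0.0034, and 0.13 without day 6). Il6r fell by 0.54 ± 0.12, by 0.65 ± 0.12 and by 0.42 ± 0.12 with fenofibrate, Wy-14643 and bezafibrate, the last call ending without day 2 (adjusted p = 0.17). Its partner Il6st fell by 0.36 ± 0.09 with fenofibrate on 13 of 14 arrays. Il4r rose with all 3, by 0.30 ± 0.07 with fenofibrate, 0.33 ± 0.07 with Wy-14643 and 0.21 ± 0.07 with bezafibrate (adjusted p = 0.017, up to 0.13 without day 3 or day 5).

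Il1r1 fell with Wy-14643. It ran from -1.46 through -1.11 to 0.57 (log2 ratio) there, against -1.67, -0.16 and 1.08 with vehicle, and the effect was -0.79 ± 0.13, 1.73-fold down (adjusted p = 2.4e-07). With fenofibrate it had -0.10 ± 0.14 (adjusted p = 0.60). Il3ra, the interleukin-3 binding chain, fell by 0.33 ± 0.05 with fenofibrate and by 0.30 with Wy-14643. The interleukin-2 receptor chains split: Il2rb fell by 0.30 ± 0.05 with fenofibrate and by 0.22 with Wy-14643, and Il2ra rose by 0.17 ± 0.03 with fenofibrate on 14 of 14 arrays. With bezafibrate Il13ra1, a chain of the interleukin-13 receptor, fell by 0.39 ± 0.08 on 15 of 15 arrays (adjusted p = 7.2e-05). Il10rb fell by 0.11 there, a call that ended without day 4.

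Fenofibrate and Wy-14643 were set against the same vehicle arrays, so their calls are listed side by side and nothing is read from how many they share. Cxcl12, Il17ra and Il6r fell and Il4r rose with all 3 PPARA agonists. The other members called with both fenofibrate and Wy-14643 were Ccl5, Ccl6, Cxcl11, Cxcr3, Il13ra2, Il15, Il16, Il18, Il1a, Il2rb and Il3ra, all lower, and Il11, Il23a and Il2ra, all higher.

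**Figure D4:**
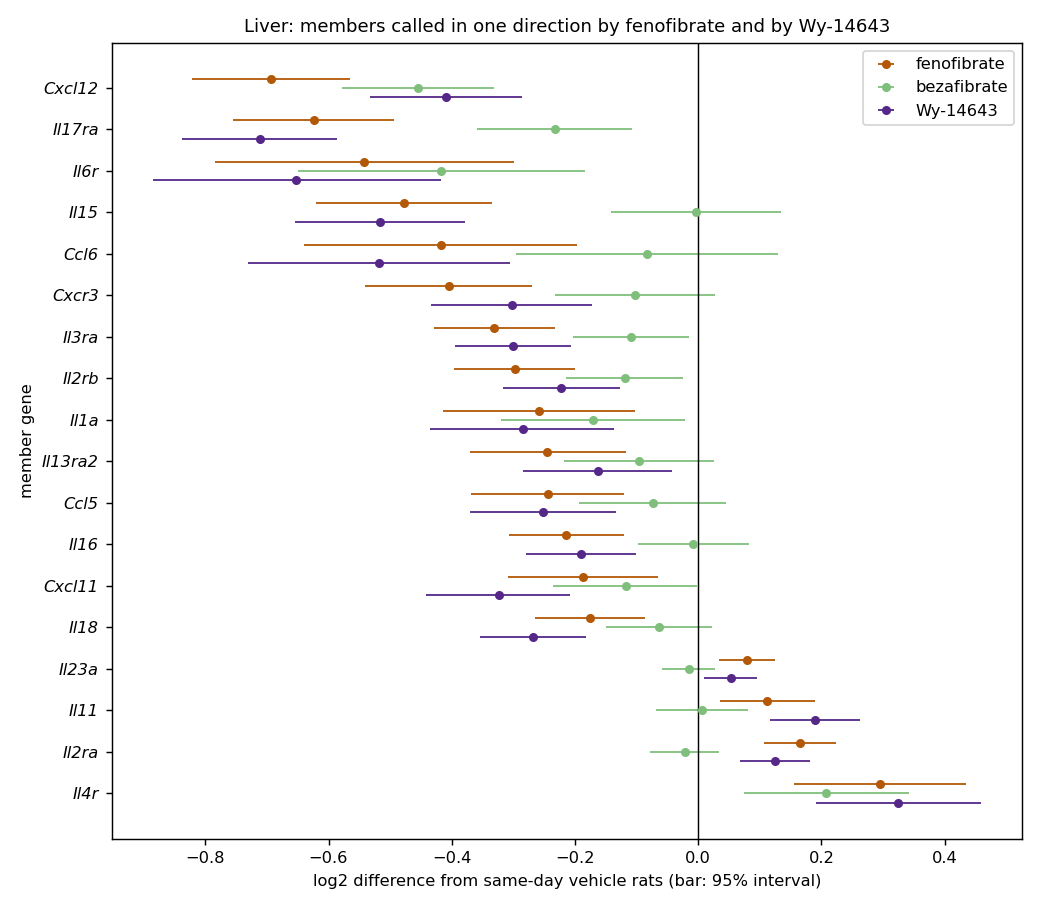
Log2 treated minus vehicle effects in liver, with 95% intervals, of the 18 members called in the same direction with fenofibrate and Wy-14643, with bezafibrate shown beside them. The 14 lower members lie left of 0 and the 4 higher ones right of it, and bezafibrate lies nearer 0 for Il15 and Il17ra, at -0.23 for Il17ra against -0.62 and -0.71.

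Markers of resident immune and endothelial cells were lower in the same livers. Of 13 macrophage and Kupffer cell markers 11 fell with fenofibrate (list median -0.34), 10 with Wy-14643 (-0.27) and 3 with bezafibrate (-0.12). The mean level of that list ran from -0.53 through -0.30 to 0.06 with fenofibrate, from -0.51 through -0.30 to -0.01 with Wy-14643 and from -0.35 through -0.17 to 0.41 with bezafibrate, against -0.38, 0.01 and 0.32 with vehicle. Of 15 T and NK cell markers 10 fell with fenofibrate, 11 with Wy-14643 and 2 with bezafibrate. Their list level ran from -0.36 through -0.12 to -0.04 with fenofibrate and from -0.30 through -0.10 to -0.04 with Wy-14643, against -0.21, 0.01 and 0.27 with vehicle. Of 7 blood endothelium markers 6, 5 and 1 fell with fenofibrate, Wy-14643 and bezafibrate, and of 5 hepatocyte markers 3 fell with each. The hepatocyte genes did not move one way: with fenofibrate Apoa1, Apoc3 and Ttr fell, Cyp2c11 rose by 0.147 and Alb had 0.158 (not called). With fenofibrate and Wy-14643 most of the listed immune and endothelial markers and most called members were thus lower. The part of the cell markers in the member effects was not tested.

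In soleus, fenofibrate raised 2 members and lowered 5, 8.97% of the members against 8.57% of all features (5.00% higher and 3.57% lower). Ccl6, which rose with retinoic acid, fell with fenofibrate. It ran from -1.43 through -0.62 to 0.27 (log2 ratio) on 19 fenofibrate arrays, against -0.90, -0.06 and 1.18 with vehicle, with 18 of 19 arrays below the day's vehicle mean. The effect was -0.51 ± 0.14 (adjusted p = 0.0094, up to 0.071 without day 4 or day 5). Il33 fell by 0.35 ± 0.10 on 17 of 19 arrays and its receptor Il1rl1 had a rise of 0.48 ± 0.15 (adjusted p = 0.025) that ended under 6 of 12 settings. The day effects of Il1rl1 were 0.34, -0.21, -0.01, 1.40 and 0.88, so days 5 and 6 carried it. With every compound the soleus effect of Il1rl1 was at least 0.25 against the same vehicle arrays, though only fenofibrate was called. Ccl21 fell by 0.66 ± 0.14 on 17 of 19 arrays, Il20rb by 0.39 ± 0.11 and Il34 by 0.24 ± 0.06, and the calls of Il20rb and Il34 ended without day 5. Cxcr4, the Cxcl12 receptor, rose by 0.12 (adjusted p = 0.042, ended under 5 of 12 settings). In these arrays 3 of 13 macrophage markers and 2 of 7 antigen presentation genes fell, and their part was not tested. Without day 5 the total count was 1.

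In quad, 0 members were called with fenofibrate (limma, with 10 at an unadjusted p under 0.05) where 0.771% of all features were called. With bezafibrate Cxcr4 rose by 0.10 ± 0.02 on 17 of 20 quad arrays and Ccl7 fell by 0.50 ± 0.13, where 2.95% of all features were called (1.19% higher and 1.76% lower), and both calls ended under 2 or more settings (adjusted p up to 0.075). Ccl7 ran from -1.22 through -0.44 to 0.30 with bezafibrate, against -0.86, -0.07 and 1.47 with vehicle (log2 ratio). In soleus 0 members were called with bezafibrate (14 at an unadjusted p under 0.05, 2.60% of all features called). With Wy-14643 0 members were called in either muscle by limma, with 3 in soleus and 4 in quad at an unadjusted p under 0.05, where 0.321% and 0.0380% of all features were called.

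Set directly against the mean of the 3 PPARA agonists, whose doses differ from that of retinoic acid, retinoic acid had 20 members higher and 6 lower in liver (33.3% of the members, 36.9% of all features, 18.5% higher and 18.4% lower). Cxcl1 differed most, at 2.35 ± 0.24 (adjusted p = 1.5e-15), followed by Il1r1 at 0.90 ± 0.14, Ccl6 at 0.62 ± 0.11 and Ccl9 at 0.57. Il34 had -0.59 ± 0.06 and Il4r -0.55 ± 0.07. Ccl5 (0.38), Il7 (0.41), Il2rb (0.30), Il17ra (0.38), Il3ra (0.24) and Il10rb (0.14) were also higher with retinoic acid.

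In soleus 5 members were higher and 4 lower (5.66% of all features, 2.53% higher and 3.13% lower), and in quad 3 and 1 (1.31% of all features, 0.657% higher and 0.651% lower). Ccl6 had the smallest adjusted p among the members in both muscles, at 0.78 ± 0.12 in soleus (adjusted p = 3.5e-07) and 0.78 ± 0.10 in quad (adjusted p = 6.3e-09). Il20rb was lower, by -0.32 in soleus and by -0.49 ± 0.09 in quad, and Il4r higher, by 0.27 and 0.21. In soleus Ccl2 (0.75 ± 0.23, adjusted p = 0.031), Il6 (0.29 ± 0.09, adjusted p = 0.025) and Ccl19 (0.21) were higher, and Il33 (-0.28), Il13ra2 (-0.23) and Il11ra1 (-0.15) lower. In quad Cxcl13 had a larger difference than Ccl6 with a wider error (0.86 ± 0.21, adjusted p = 0.011). Without day 4 the soleus count was 2, and without day 3 or without day 5 the quad count was 2.

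A change of the effect over days was called for 1 member in 1 of 15 comparisons. Il16 in liver with retinoic acid had day effects of -0.23, -0.29, 0.04, 0.12 and 0.29, a slope of 0.14 log2 units per day (adjusted p = 0.0024, limma), where 9.38% of all features had a called slope. In the other 14 comparisons 0 members were called, with 1 to 11 members at an unadjusted p under 0.05. Of all features, 0% had a called slope for any compound in soleus and for fenofibrate, Wy-14643 and rosiglitazone in quad, against 0.00543% for bezafibrate and 0.0217% for retinoic acid in quad. In liver it was 0.446% for fenofibrate, 0.0598% for bezafibrate, 0.158% for Wy-14643 and 0.196% for rosiglitazone.

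In EDL the ratios could only be tested against 0, that is against the vehicle pool of the day. At the low doses 9 members were higher and 4 lower with fenofibrate (34.6% of all features called), 10 and 5 with bezafibrate (33.9%), 15 and 9 with Wy-14643 (47.1%), 12 and 5 with rosiglitazone (37.2%) and 12 and 5 with retinoic acid (40.4%). That is 16.7%, 19.2%, 30.8%, 21.8% and 21.8% of the members in that order, below the share of all features each time. In all, 41 members were called with at least 1 of the low doses, each against the vehicle pool of its day. The share of all features called with at least 1 is not given here, so nothing is read from that count. Set against the other low-dose compounds instead of the pool, 0 members were called for any compound (limma, smallest adjusted p = 0.26), with 1 to 7 at an unadjusted p under 0.05. These calls therefore describe the EDL arrays against their pools and do not separate a compound from the others. Every EDL array had the rat in Cy5 and a pool shared by its day in Cy3. A dye difference of a probe or an error of a pool thus cannot be told apart from a compound effect in any EDL ratio to the pool, also where nearly all arrays lie on one side of 0.

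Il11ra1 and Il18bp, which binds and blocks interleukin-18, were lower than the pool with all 5 low doses, and Il13ra1 and Il1b were higher. Il11ra1 ran from -0.63 through -0.27 to -0.04 (log2 ratio) over all 54 EDL arrays and lay below 0 on every one. Il18bp lay below 0 on 53 of 54 arrays, Il13ra1 above 0 on 50 and Il1b above 0 on 47. The means of Il11ra1 were -0.23 with fenofibrate, -0.32 with bezafibrate, -0.28 with Wy-14643, -0.26 with rosiglitazone and -0.30 with retinoic acid, and those of Il13ra1 ran from 0.23 with rosiglitazone to 0.37 with retinoic acid.

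**Figure D5:**
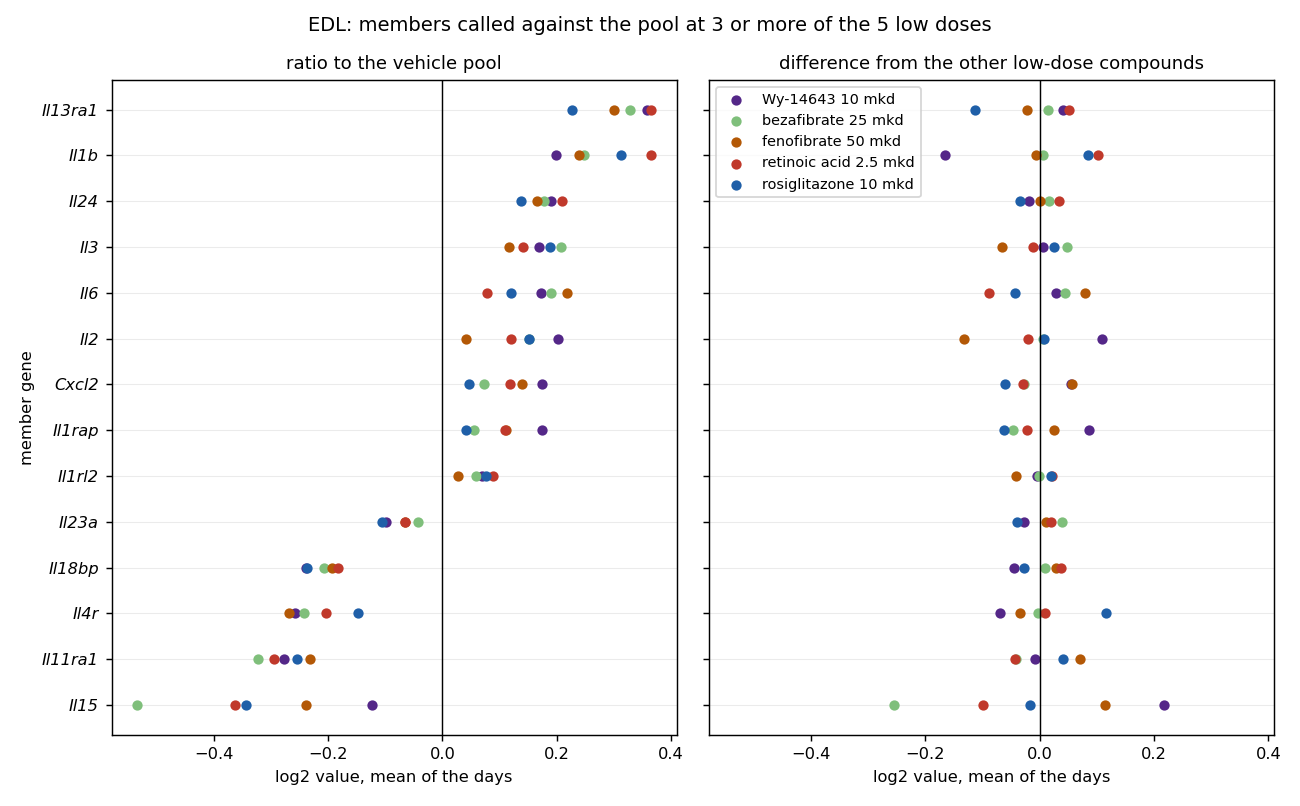
Left, mean log2 ratio to the vehicle pool in EDL (points, 1 per low-dose compound) of the 14 members called with at least 3 of the 5 low doses; right, the same members as difference from the other low-dose compounds. On the left the 5 compounds of a member lie on one side of 0. On the right, where the differences of a member balance around 0 by construction, 0 were called.

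Members with a muscle effect at the high doses were compared side by side at the low ones. Ccl6 ran from -0.49 through 0.60 to 1.63 on the 11 EDL arrays of retinoic acid at 2.5 mkd, above 0 on 10, with a mean log2 ratio of 0.59 ± 0.14 (adjusted p = 0.00058). Against the other low-dose compounds it had 0.57 ± 0.16 (adjusted p = 0.32). Rosiglitazone at 10 mkd had Cxcl12 at -0.20 ± 0.05 (adjusted p = 0.0013, below 0 on 8 of 9 arrays), Cxcl9 at 0.39 ± 0.12 (adjusted p = 0.0096) and Cxcl10 at 0.66 ± 0.24 (adjusted p = 0.027). Against the other compounds these had adjusted p = 0.26, 0.43 and 0.41. Cxcl10 ran from -0.24 through 0.16 to 2.52 over the 9 arrays. Without rat 1355 the mean of Cxcl9 was 0.25 and that of Cxcl10 0.405. The members among the first 12 of 1 compound that are not in the plot of the EDL ratios were Il1r1 (-0.16), Il13 (0.16) and Il2rg (-0.12) with Wy-14643, Il5ra (0.22), Il1a (0.12) and Il7 (0.22) with bezafibrate, and Il6st (-0.29), Cxcl3 (0.16), Il1rn (0.12) and Il18 (0.19) with fenofibrate. They were Il9r (0.13) with retinoic acid, and Il5 (0.44) and Ccl2 (0.43) with rosiglitazone. Of these, 5 moved by over 1.5 times without 1 array. Il5 had 0.21 without rat 1355, Il18 0.12 without rat 1129, Il1a 0.07 without rat 1234, and Il5ra 0.125 and Il7 0.14 without rat 1240.

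Rosiglitazone at 100 mkd on day 4 had 3 members higher and 8 lower than the pool in EDL, where 33.1% of all features were called. Higher were Il12a (0.30), Il6 (0.32) and Il1b (0.33), and lower were Il18bp (-0.29), Il10ra (-0.28), Il23a, Il16, Cxcl12 (-0.26 ± 0.07), Il34, Ccl19 and Il11ra1. Without rat 1374 the count was 5, and the mean was 0.06 for Il6 and -0.14 for Il10ra. Without rat 1375 that of Il16 was -0.18, against -0.265 with it. Set against rosiglitazone at 10 mkd on the same day, 0 members differed (limma, 3 at an unadjusted p under 0.05, 0.0108% of all features called). The difference was 0.16 ± 0.55 for Cxcl10, with a 95% interval from -0.95 to 1.26, and -0.16 ± 0.11 for Cxcl12, with an interval from -0.38 to 0.07.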

How the data were processed

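Arrays of 2 colours set the RNA of 1 rat (Cy5) against a pool of same-day vehicle rats of its tissue (Cy3), per the labels. Tissue was snap frozen, RNA was extracted with TRIzol and RNeasy, and cRNA was made by reverse and in vitro transcription before dye was coupled, per the protocol of most labels. Values were deposited by the authors as 1 table of log10 ratios, with 484 arrays in columns and 23653 probes in rows. Their normalisation is not given in the sources used here. The scale was inferred from values centred on 0 and limited to -2 and 2, where 699 values lay, which is the bound a 100-fold limit gives. The direction, rat over pool, was taken from the channel labels (Cy5 over Cy3), and the file itself does not state it. Array medians ran from -0.34 to 0.17 (log2) and 0.907% of values were missing. With no intensities, precision rests on how many arrays a group has.

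Ratios were multiplied by 3.32 to give log2 values. Probes took gene symbols from the platform annotation: 15260 named 1 gene, 17 several and 8376 none. All 78 members matched the rat gene table by identifier. Probes of a gene were averaged (18 members had over 1), which with unnamed probes gave 18603 features. Those with values on at least 80% of the arrays of a fit were tested. Linear models with 1 mean per compound, dose and day were fitted with limma 3.58.1 in R 4.3.3 (statmod 1.5.0), with two-sided p-values adjusted by Benjamini-Hochberg over all features at 0.05. Tables and plots were made with matplotlib 3.10.9, pandas 2.3.3 and numpy 2.4.6 under Python 3.11.15. Each label names 1 rat, except those of the quad rosiglitazone arrays of day 3, which carry no rat number. Those arrays could not be paired with soleus of the same rat. The p-values measure the spread between rats. Where a ratio was tested against 0, as in EDL, they do not cover the error of the pool or of the dyes.

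On simulated data with 100 features changed by 0.5 log2 units in each tissue, the retinoic acid comparison recovered 96% in soleus, 99% in quad and 96% in liver. False calls numbered 8, 8 and 5 in that order. The changed features were drawn at random from all tested ones, and the noise was normal and independent between features and arrays. These shares therefore do not describe members that spread more widely than most features. Of 111 rats that gave soleus and quad, 109 could be compared: deviations from the group mean of the same rat in both muscles correlated with a median r of 0.27, against -0.07 for other rats of the same group, so rat numbers pair the muscles.

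The members and gene lists were chosen with earlier results of these data known. Genes named are, per comparison, every member passing 0.05 (the 12 with the smallest adjusted p where over 12 passed), the member of each role with the largest effect in each tissue, and a fixed set of 20 (Ccl2, Ccl5, Ccl11, Ccl21, Cxcl1, Cxcl10, Cxcl12, Cxcr4, Il1b, Il6, Il10, Il15, Il18, Il1rn, Il1r1, Il1r2, Il1rl1, Il4r, Il6r and Il6st). Further members named for a shared call or set beside another tissue were chosen after their values were seen. Alternatives were centring and scaling of arrays, array quality weights, stricter filtering, arrays kept or left out, days left out, the pool as control, the rat as block and single probes.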

Additional observations from a re-analysis of the deposited data

Results flagged for a closer look

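On EDL arrays 6 values stood apart from the rest of their group by a gap large for its range, out of 56 values tested, where chance gives about 1 in 20 groups. With bezafibrate at 25 mkd, rat 1242 had an Il13ra1 log2 ratio of 1.07 (median of the others 0.28) and an Il15 log2 ratio of -2.0 (median -0.29), and rat 1237 had an Il6 log2 ratio of 0.58 (median 0.16). With rosiglitazone at 10 mkd, rat 1355 had a Cxcl9 log2 ratio of 1.49 (median 0.35) and an Il5 log2 ratio of 2.26 (median 0.15), and rat 1345 had an Il23a log2 ratio of -0.01 (median -0.13). The EDL means given for these genes include these arrays, and without rat 1355 those of Cxcl9 and Il5 were 0.25 and 0.21. The log2 effect of retinoic acid on Cxcl1 differed between soleus and quad by 0.64 in the test of the difference itself. The log2 effect of retinoic acid on Il16 in liver changed over the days, with a slope of 0.144 per day.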

How the results depend on the processing

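Of the 136 calls of members against vehicle, 54 held under every setting run (10 to 12 settings each). Subtracting array medians or testing only features with values on all arrays moved no count of called members by over 1.5 times. Where a count of called members moved by over that, the cause was not tested. In soleus, fenofibrate had 7 as reported, 4 with the 2 left-out arrays kept, 3 without day 4, 1 without day 5 and 14 with the ratio to the pool set against 0. Bezafibrate had 0, but 1 with array quality weights, 1 without all doubted arrays, 1 without day 6 and 3 against the pool, and Wy-14643 had 0, but 1 against the pool. Rosiglitazone had 5, but 3 without day 4, 2 without day 5 and 16 against the pool. Retinoic acid had 14, but 8 without day 4, and set against the PPARA agonists 9, but 14 with weights, 4 with both arrays kept and 2 without day 4. In quad, fenofibrate had 0, but 4 with both arrays kept and 3 against the pool, and its day slope 0, but 1 with both kept. Bezafibrate had 2, but 1 without doubted arrays and without day 2, 3 or 5, 0 without day 4 and 11 against the pool, and Wy-14643 had 0, but 1 against the pool. Rosiglitazone had 6, but 12 with weights, 2 without day 5 and 14 against the pool. Retinoic acid had 9, but 5 without day 2, 5 without day 3 and 4 without day 4, and against the PPARA agonists 4, but 2 without day 3 or day 5. In liver, bezafibrate had 9, but 20 with weights and 16 against the pool, and rosiglitazone had 19, but 9 with scaled arrays, 11 with weights, 12 without doubted arrays and 6 without day 4. Retinoic acid had 18, but 32 with weights and 10 without day 3. With weights the day slopes in liver had 2 (bezafibrate), 3 (Wy-14643), 1 (rosiglitazone) and 12 (retinoic acid, 4 without doubted arrays).

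For the soleus minus quad difference, fenofibrate had 0, but 1 with weights and 4 with both arrays kept. Retinoic acid had 1, but 0 with scaled arrays, weights, both arrays kept or doubted arrays left out, and 3 with the rat as replicate block, which changed no other compound's count by over 1.5 times. The weights did not fully converge in 3 fits. In EDL, setting a low dose against the other low-dose compounds left 0 called for each of the 5, and bezafibrate had 25 with weights against 15. Rosiglitazone at 100 mkd had 11, and from 5 to 11 with 1 array left out in turn. With 1 array left out in turn, the mean of 1, 4, 1, 6 and 2 called members moved by over 1.5 times at the low doses of fenofibrate, bezafibrate, Wy-14643, rosiglitazone and retinoic acid.

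Reversed effects (log2) were these. In liver with rosiglitazone, Ccl7 had -0.012 with weights, and Ccl3 had 0.074 without day 4 and from -0.63 to 0.0093 with 1 array left out in turn (added after the data were seen). In EDL against the other low-dose compounds, fenofibrate had Il11ra1 0.07, Il13ra1 -0.022, Il18bp 0.028 and Il1b -0.006. Bezafibrate had Il18bp 0.009, and Wy-14643 had Il1b -0.165, Il1rl2 -0.005 and Il24 -0.019. Rosiglitazone had Il11ra1 0.041 and Il13ra1 -0.114. Retinoic acid had Cxcl2 -0.03, Il18bp 0.037, Il1rap -0.023, Il2 -0.02, Il23a 0.019 and Il4r 0.01. Single probes gave -0.027 for Cxcl12 and -0.024 for Il18 in liver (retinoic acid minus PPARA agonists), 0.016 for Cxcl12 and -0.017 for Il2 in EDL (rosiglitazone), 0.012 for Il18 in quad (retinoic acid), -0.127 for Il1a in EDL (bezafibrate) and 0.039 for Il1a in quad (rosiglitazone).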

Other observations

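The vehicle rats themselves differed in these genes. Within days, the SD of the log2 ratio between vehicle rats had a median of 0.27 over the members in soleus, 0.19 in quad and 0.18 in liver, against 0.21, 0.19 and 0.16 over all features. Above the 90th percentile of all features lay 16 members in soleus, 12 in quad and 12 in liver. In soleus the widest were Ccl11 (SD 0.767, n = 34), Ccl7 (0.762), Ccl2 (0.743) and Il1rl1 (0.637), that is 2 monocyte attractants, an eosinophil attractant and the interleukin-33 receptor. In quad they were Cxcl13 (0.795, n = 63), Cxcl10 (0.639), Ccl2 (0.535) and Ccl7 (0.491). In liver they were Cxcl10 (0.722, n = 73), Cxcl13 (0.714), Cxcl1 (0.608) and Cxcl9 (0.430). These members were chosen after their values were seen, and the source of the spread was not tested.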
